A study of Homo sapiens with 4 samples.

Results

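DNA replication licensing and nucleotide supply was followed through 45 genes, out of 11963 genes read by the arrays. They are the genes of the ORC, MCM, GINS and RFC complexes, the replicative polymerases and primase, RPA, the lagging strand enzymes and the enzymes that make deoxynucleotides. The set was given as a list of gene symbols, and a gene was taken from the probe sets that the array's gene table pairs with that symbol and no other. All 45 genes were found, on 68 probe sets.

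MDA-MB231, a human breast cancer line of basal type that lacks estrogen receptor protein, carried either a control shRNA or PIAS1 shRNA2, which targets the SUMO E3 ligase and transcriptional regulator PIAS1. The hairpins were driven by the U6 promoter of a lentiviral vector, and infected cells were kept by drug selection, so the control cells carry a vector, a hairpin and the drug selection too. Both lines were grown for 30 h in DMEM with 10% FBS (below, DMEM) or in SCM, a serum-free medium with EGF, basic FGF, insulin and albumin. RNA of each condition was read on 1 Affymetrix expression array, so no ratio below has a replicate or a p-value, and differences between the lines or media cannot be told apart from differences between single cultures.

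Before a cell can copy its DNA, each origin has to be licensed. In G1 the origin recognition complex ORC, with CDC6 and CDT1, loads the MCM2-7 helicase onto DNA, while geminin (GMNN) holds CDT1 in check from S phase on. CDC7 kinase, CDC45 and GINS then turn the loaded helicase into a moving fork, where primase, the polymerases, PCNA and its loader RFC copy the strands from a supply of deoxynucleotides kept up by ribonucleotide reductase and thymidylate synthase. Many of these genes are transcribed through E2F factors when a cell leaves quiescence, and their mRNAs decline in cells that stop dividing.

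The deposited value of a probe set is a MAS5 signal, an array intensity on a linear scale. Signals under 184 were taken as background, a floor set from genes of other tissues, and were raised to it before any ratio. The used probe set, the brightest of its gene, lay above the floor on all 4 arrays for 44 of the 45 genes, the exception being ORC1. Below, the first value of each pair is control shRNA and the second PIAS1 shRNA2. Signals of different genes come from different probes and were not set against each other. A gene was counted as lower or higher when its signal differed at least 2-fold, a descriptive limit and not a test.

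The targeted gene was lower in the PIAS1 shRNA2 line. On its brightest probe set PIAS1 gave 1383 and 512 in DMEM and 1814 and 671 in SCM, which is 37.0% of control in both media. On its other probe sets the deposited signals, without the floor, were 23.1% and 23.8% of control in DMEM and 77.9% and 31.5% in SCM, the 23.1% resting on a signal of 158 that is under the floor. The signal was lower in the line labelled PIAS1 shRNA on every probe set, by uneven amounts in SCM. The labels give no hairpin number, which comes from the paper's methods.

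The 4 arrays were on a common scale, each with a mean signal of 2501 once 2% of the 22277 probe sets were trimmed at each end. An equal mean can come from the scaling itself, so it is no check of the arrays. Their medians ran from 569 to 605. The 3′/5′ ratio of ACTB, which tracks RNA integrity, was 0.982 and 0.946 in DMEM and 1.07 and 1.11 in SCM, and that of GAPDH lay between 0.834 and 0.879 on all arrays. The ACTB ratio moved with the medium, as the replication genes did, and its part in the result was not tested. Of the markers listed for MDA-MB231, VIM, CD44, AXL, PLAUR and CAV1 were well above the floor on all arrays, and PGR and CDH1 were under it on all. The low markers were not all absent, since KRT19 (3680 to 18700), GATA3 (1718 to 6040), ERBB2 (1677 to 2376), EPCAM (486 to 1067) and ESR1 (206 to 706) gave signals above the floor.

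Replication genes were broadly lower in SCM than in DMEM, in both lines. With control shRNA, 37 of the 45 genes were at least 2-fold lower in SCM and 0 were higher, where 10.7% of all genes above the floor were lower and 10.8% higher. With PIAS1 shRNA2, 34 were lower and 0 higher, against 10.4% and 10.9% of all genes. The median log2 ratio of SCM over DMEM was -1.72 (3.30-fold lower) in the control shRNA line and -2.07 (4.19-fold lower) in the PIAS1 shRNA2 line, beside 0.04 and -0.01 over all genes. In 42 of the 45 genes both SCM signals lay below both DMEM signals, which held for 33.4% of all genes. At least 2-fold lower in both lines were 34 genes (7.06% of all genes), and at least 4-fold lower in both were 18 (1.16% of all genes). In a bulk RNA sample, fewer cells in S phase and less mRNA in each cell cannot be told apart.

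**Figure D1:**
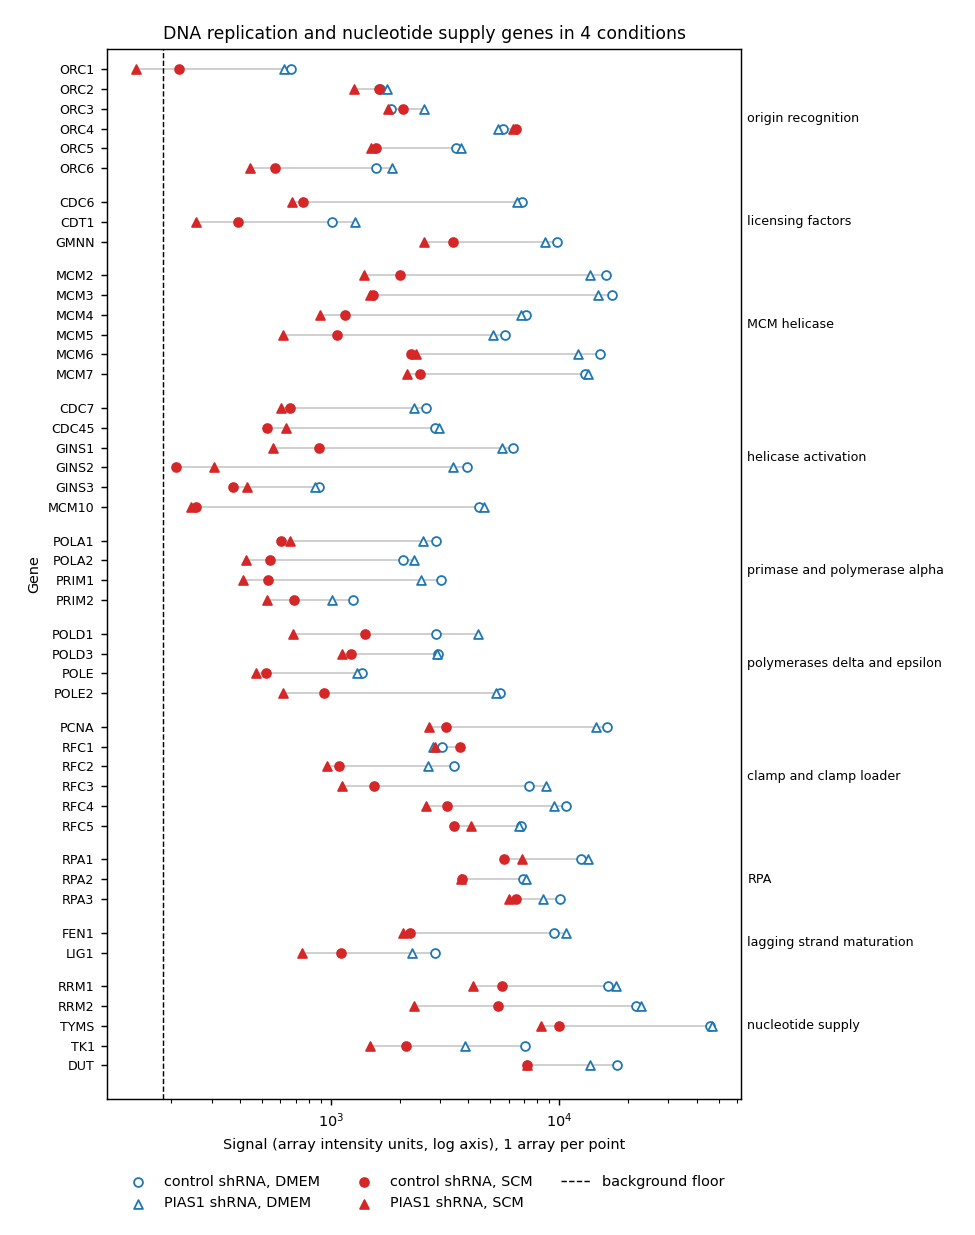
Signal of each of the 45 genes on the 4 arrays (log axis, array intensity units), grouped by role, with open blue symbols for DMEM, filled red symbols for SCM, circles for control shRNA and triangles for PIAS1 shRNA2. The red symbols lie left of the blue ones in 42 genes, and the exceptions are ORC3, ORC4 and RFC1.

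Genes with some of the lowest medium ratios act where the loaded helicase is switched on, and their promoters are shown beside that of RFC1, a gene whose media overlapped. GINS2, a subunit of the GINS complex, gave 3947 and 3414 in DMEM and 210 and 308 in SCM. MCM10, a factor that binds MCM2-7 and helps the fork to start, gave 4442 and 4689 in DMEM, and 256 and 244 in SCM. Both stood high in DMEM and close to the floor in SCM, 18.8-fold and 17.3-fold lower with control shRNA, and 11.1-fold and 19.2-fold lower with PIAS1 shRNA2. Among the 9169 genes above the floor in that comparison, GINS2 and MCM10 ranked 1 and 2 from the lowest ratio in the control shRNA line. This order rests on the floor, since with a floor of 378 they were 10.5-fold and 11.8-fold lower and ranked 4 and 1, and with a floor of 605 they were 6.52-fold and 7.34-fold lower and ranked 18 and 8. MCM3, a helicase subunit, gave 17044 and 14829 in DMEM and 1529 and 1490 in SCM, or 11.1-fold and 9.95-fold lower. RFC1, the large subunit of the clamp loader, gave 3070 and 2796 in DMEM and 3658 and 2844 in SCM, with overlapping media. The windows below run from 250 bases before to 50 bases after the first listed start site, 5′ to 3′, from RefSeq on GRCh38.p14, with GINS2 at chr16:85688905-85689204 (minus strand), MCM10 at chr10:13161308-13161607 (plus strand), MCM3 at chr6:52284693-52284992 (minus strand) and RFC1 at chr4:39366313-39366612 (minus strand). Capitals mark the letters of an E2F site as searched here, or CCAAT on either strand.
GINS2: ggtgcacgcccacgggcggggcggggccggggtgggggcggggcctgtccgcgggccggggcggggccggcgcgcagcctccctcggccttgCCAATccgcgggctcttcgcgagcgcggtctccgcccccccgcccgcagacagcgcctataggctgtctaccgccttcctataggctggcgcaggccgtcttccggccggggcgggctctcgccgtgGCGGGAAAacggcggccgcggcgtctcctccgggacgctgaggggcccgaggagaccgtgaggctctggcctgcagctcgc
MCM10: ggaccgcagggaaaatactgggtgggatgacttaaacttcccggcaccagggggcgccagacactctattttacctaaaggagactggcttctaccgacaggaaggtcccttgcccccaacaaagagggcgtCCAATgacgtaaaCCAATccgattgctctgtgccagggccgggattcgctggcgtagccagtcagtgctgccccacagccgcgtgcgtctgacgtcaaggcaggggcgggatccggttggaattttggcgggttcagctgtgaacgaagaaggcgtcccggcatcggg
MCM3: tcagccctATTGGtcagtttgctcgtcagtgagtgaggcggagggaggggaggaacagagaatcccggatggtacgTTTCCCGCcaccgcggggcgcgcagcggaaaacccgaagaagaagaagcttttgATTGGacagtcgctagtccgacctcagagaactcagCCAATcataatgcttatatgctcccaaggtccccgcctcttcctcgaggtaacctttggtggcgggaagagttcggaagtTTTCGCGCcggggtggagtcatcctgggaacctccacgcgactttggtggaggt
RFC1: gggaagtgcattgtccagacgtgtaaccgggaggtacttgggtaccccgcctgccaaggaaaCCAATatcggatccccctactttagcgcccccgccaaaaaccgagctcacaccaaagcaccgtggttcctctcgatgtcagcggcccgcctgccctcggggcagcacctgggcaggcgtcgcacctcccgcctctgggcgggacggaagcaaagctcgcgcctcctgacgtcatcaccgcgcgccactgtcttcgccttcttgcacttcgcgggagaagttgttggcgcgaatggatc

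GINS2 holds GCGGGAAA from position -31, counted with the first transcribed base as 1 and the base before it as -1, and MCM3 holds TTTCCCGC from -174 and TTTCGCGC from -4. No E2F letters were found in the MCM10 and RFC1 windows, where the capitals are CCAAT boxes alone. The search covered 4 strings of 8 letters and finds no site spelled otherwise. The MCM10 window holds tttggcgg, which differs from the searched TTTGGCGC in its last letter. RFC1 holds gttggcgc, which differs from TTTGGCGC in its first letter, so such near matches do not set these windows apart. As GINS2, MCM10 and RFC1 were chosen after their values were seen, a link between letters and ratio was not tested.

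Origin recognition genes were mixed, with 3 of 6 at least 2-fold lower in both lines. ORC1, the subunit whose level follows the cell cycle, gave 671 and 620 in DMEM and 215 and 140 in SCM. It was 3.12-fold lower in SCM with control shRNA, and in the other line, where 140 is under the floor, the fold was at least 3.38. ORC6 gave 1583 and 1852 in DMEM and 568 and 441 in SCM, or 2.79-fold and 4.19-fold lower, and ORC5 was 2.24-fold and 2.48-fold lower.

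The other subunits of the complex differed less. ORC2 gave 1635 and 1760 in DMEM and 1626 and 1261 in SCM. ORC3 gave 1841 and 2569 in DMEM and 2071 and 1778 in SCM. The media overlapped for ORC3 and lay close together for ORC2, and no ratio of either reached 2-fold. ORC4 gave 5674 and 5403 in DMEM and 6491 and 6275 in SCM on its brightest probe set, but its other probe set read 1524 and 1735 in DMEM and 747 and 836 in SCM, so the direction for ORC4 depends on the probe set.

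All of the licensing factors were lower in SCM. CDC6, which brings the helicase to ORC, gave 6878 and 6524 in DMEM and 758 and 672 in SCM. It was 9.07-fold lower in the control shRNA line and 9.70-fold lower in the PIAS1 shRNA2 line. CDT1, its partner in loading, gave 1010 and 1272 in DMEM and 391 and 256 in SCM, or 2.59-fold and 4.97-fold lower. Geminin, the inhibitor of CDT1, was also lower, with 9768 and 8658 in DMEM and 3423 and 2547 in SCM, or 2.85-fold and 3.40-fold. The loaders and their inhibitor thus differed in the same direction.

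The MCM2-7 helicase moved as a group, with 6 of 6 subunits at least 4-fold lower in SCM in both lines. MCM2 gave 16054 and 13596 in DMEM and 2009 and 1390 in SCM, or 7.99-fold and 9.78-fold lower. MCM6 gave 15096 and 12030 in DMEM and 2250 and 2354 in SCM, or 6.71-fold and 5.11-fold lower. With MCM3 above, these are subunits of a single ring, and none of the DMEM and SCM signals overlapped. MCM4 was 6.18-fold and 7.63-fold lower, MCM5 5.45-fold and 8.35-fold, and MCM7 5.25-fold and 6.18-fold. The median over the helicase subunits was 6.44-fold lower with control shRNA and 7.98-fold with PIAS1 shRNA2.

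Helicase activation genes had a median log2 ratio of -2.64 and -2.78, and 5 of 6 were at least 2-fold lower in both lines. GINS1 gave 6277 and 5596 in DMEM and 883 and 555 in SCM, or 7.11-fold and 10.1-fold lower. CDC45, the helicase cofactor, gave 2856 and 2972 in DMEM and 523 and 634 in SCM, or 5.46-fold and 4.69-fold lower. CDC7, the kinase that acts on MCM2-7, gave 2611 and 2304 in DMEM and 662 and 602 in SCM, or 3.94-fold and 3.82-fold lower. Each of these separated the media fully. GINS3 gave 885 and 853 in DMEM and 372 and 427 in SCM on its brightest probe set, 2.38-fold lower with control shRNA. With PIAS1 shRNA2 its SCM signal there was 50.1% of that in DMEM, just short of 2-fold. The other GINS3 probe set was 3.18-fold and 2.66-fold lower.

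At the fork, primase and polymerase alpha, which start each new strand, were lower in SCM as well. PRIM1, the catalytic primase subunit, gave 3027 and 2489 in DMEM and 531 and 411 in SCM, or 5.70-fold and 6.06-fold lower. POLA1 was 4.77-fold and 3.83-fold lower and POLA2 3.83-fold and 5.45-fold. The large primase subunit PRIM2 gave 1246 and 1013 in DMEM and 689 and 522 in SCM, and at 1.81-fold and 1.94-fold lower it did not reach 2-fold.

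Among the polymerases that extend the strands, POLE2, a subunit of the leading strand polymerase epsilon, gave 5512 and 5281 in DMEM and 932 and 618 in SCM, or 5.91-fold and 8.54-fold lower. Its catalytic subunit POLE was 2.64-fold and 2.76-fold lower, and POLD3 of polymerase delta 2.40-fold and 2.62-fold. Subunits of polymerase epsilon thus differed between the media by unequal amounts. POLD1, the catalytic subunit of polymerase delta, was 2.05-fold lower with control shRNA and 6.44-fold lower with PIAS1 shRNA2 and is described with the knockdown.

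PCNA, the sliding clamp, gave 16238 and 14495 in DMEM and 3178 and 2677 in SCM, or 5.11-fold and 5.42-fold lower. Its loader was uneven. RFC3 gave 7388 and 8744 in DMEM and 1551 and 1116 in SCM, or 4.76-fold and 7.83-fold lower. RFC4 was 3.30-fold and 3.62-fold lower, RFC2 3.21-fold and 2.75-fold, and RFC5 1.96-fold and 1.61-fold on its brightest probe set. RFC1, shown above, was 1 of the 3 genes with a control shRNA signal higher in SCM than in DMEM, together with ORC3 and ORC4.

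RPA, which coats single-stranded DNA in replication and in repair, differed by smaller ratios. RPA1 gave 12511 and 13388 in DMEM and 5756 and 6874 in SCM, or 2.17-fold and 1.95-fold lower. RPA2 was 1.86-fold and 1.93-fold lower and RPA3 1.55-fold and 1.4-fold. On its brightest probe set no RPA subunit was 2-fold lower in both lines, although SCM lay below DMEM for each of them. The other RPA1 probe set was 2.07-fold and 2.18-fold lower. Lagging strand maturation was lower, with FEN1, the flap nuclease, 4.27-fold and 5.16-fold and LIG1, the ligase that seals the fragments, 2.59-fold and 3.05-fold.

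Nucleotide supply genes were lower in SCM to a similar degree as the set as a whole, with a median log2 ratio of -1.73 and -2.09. TYMS, which makes dTMP, gave 45659 and 46806 in DMEM and 10008 and 8316 in SCM, or 4.56-fold and 5.63-fold lower. RRM1, the large subunit of ribonucleotide reductase, gave 16439 and 17775 in DMEM and 5636 and 4182 in SCM, or 2.92-fold and 4.25-fold lower. Its small subunit RRM2 was 4.01-fold and 9.89-fold lower. TK1, which salvages thymidine, gave 7090 and 3852 in DMEM and 2131 and 1480 in SCM, or 3.33-fold and 2.60-fold lower. DUT, which clears dUTP, was 2.49-fold lower with control shRNA and 1.88-fold with PIAS1 shRNA2 on its brightest probe set. Its other probe sets above the floor were 3.09-fold and 2.26-fold lower with PIAS1 shRNA2.

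**Figure D2:**
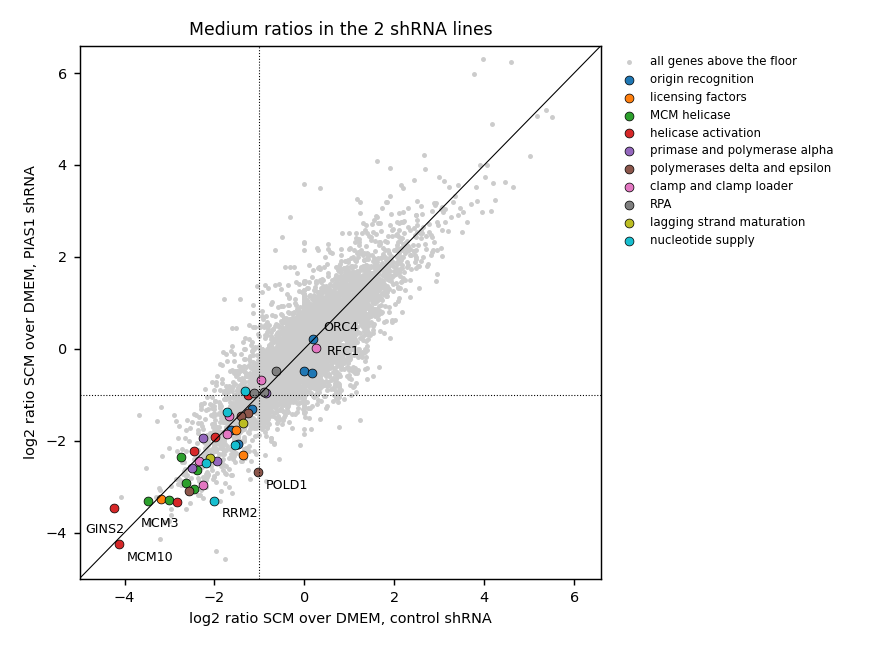
Log2 ratio of SCM over DMEM in the control shRNA line (horizontal) against the PIAS1 shRNA2 line (vertical), with the 45 genes coloured by role, all genes above the floor in grey, dotted lines at 2-fold lower and a diagonal of equal ratios. Most replication genes lie in the lower left corner near the diagonal, GINS2 and MCM10 lie farthest out at the floor of 184 but not at a floor of 605, and RRM2 and POLD1 lie below the diagonal.

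The 2 medium comparisons use different arrays, and the ratios ran in parallel. Across the 45 genes, the log2 ratios of the lines correlated at 0.90 (Pearson) and 0.89 (Spearman), given as a description across genes, which are not independent replicates. Over all 9696 genes above the floor on any array the same values were 0.84 and 0.79. The points share the media, the scaling and the parental cells. The ratio was lower in the PIAS1 shRNA2 line for 31 of the 45 genes and higher for 14, where it was lower for 50.8% of all genes. The median difference was -0.13 on the log2 scale, beside -0.01 over all genes.

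Replication genes differed far less between the lines than between the media. With PIAS1 shRNA2 in DMEM, 0 of the 45 genes were 2-fold lower and 0 higher, where 0.869% and 1.54% of all genes were. The log2 knockdown ratio, PIAS1 shRNA2 over control, had a median of -0.07, beside 0.01 over all genes, and 43 of the 45 genes (95.6%) lay within 1.5-fold, against 88.8% of all genes. In SCM 2 genes, RRM2 and POLD1, were at least 2-fold lower and 0 were higher, where 1.5% and 2.18% of all genes were. The median was -0.23 (85.3% of control), beside 0.00 over all genes, and 39 of the 45 genes (86.7%) lay within 1.5-fold, against 85.7% of all genes. Most of these SCM ratios were small. On the used probe sets 37 of the 45 genes (82.2%) lay below 0, where 49.7% of all genes did. Of the 16 genes with several probe sets above the floor, 7 were below 0 on all of them, against 27.0% of all such genes. The 2 knockdown comparisons share no array, while each shares its arrays with the medium comparisons above.

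RRM2, the subunit of ribonucleotide reductase that limits the enzyme's activity over the cell cycle, had the lowest knockdown ratio in SCM. It gave 21694 and 22752 in DMEM and 5411 and 2301 in SCM. The log2 ratio between the lines was 0.07 in DMEM, and RRM2 was 2.35-fold lower with PIAS1 shRNA2 in SCM. The other RRM2 probe set read 16480 and 15383 in DMEM and 3112 and 1085 in SCM, a log2 ratio of -1.52 between the lines in SCM. On both probe sets the lowest signal was that of PIAS1 shRNA2 in SCM. RRM1, its partner, had a log2 ratio of -0.43 between the lines in SCM.

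POLD1 differed between the lines in opposite directions in the 2 media. It gave 2888 and 4388 in DMEM and 1410 and 681 in SCM. It was 1.52-fold higher with PIAS1 shRNA2 in DMEM and 2.07-fold lower in SCM. POLD1 is read by 1 probe set, so no second reading of it was at hand. Subtracting the DMEM log2 ratio from the SCM one gave -1.65 for POLD1 and -1.30 for RRM2, and these were the 2 of 45 genes at -1 or below, where 2.81% of all genes were. The difference between the media has no test.

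The remaining genes varied within 2-fold between the lines. On the used probe sets TK1 had the lowest knockdown ratio in DMEM, where PIAS1 shRNA2 left 54.3% of the control signal, and its log2 ratio in SCM was -0.53. The other GINS3 probe set gave 52.3% of control in DMEM, where the used one had a log2 ratio of -0.05. CDT1 was 0.33 in DMEM and -0.61 in SCM on the log2 scale. GINS1 was -0.17 and -0.67, and POLE2 -0.06 and -0.59. GINS2 had the highest knockdown ratio in SCM, 0.55, from signals of 210 and 308 that lie near the floor. By role, the median knockdown ratio in SCM ran from -0.43, in the licensing factors and in the nucleotide supply genes, to 0.07 in the helicase activation genes, and in DMEM from -0.24 in primase and polymerase alpha to 0.10 in origin recognition.

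**Figure D3:**
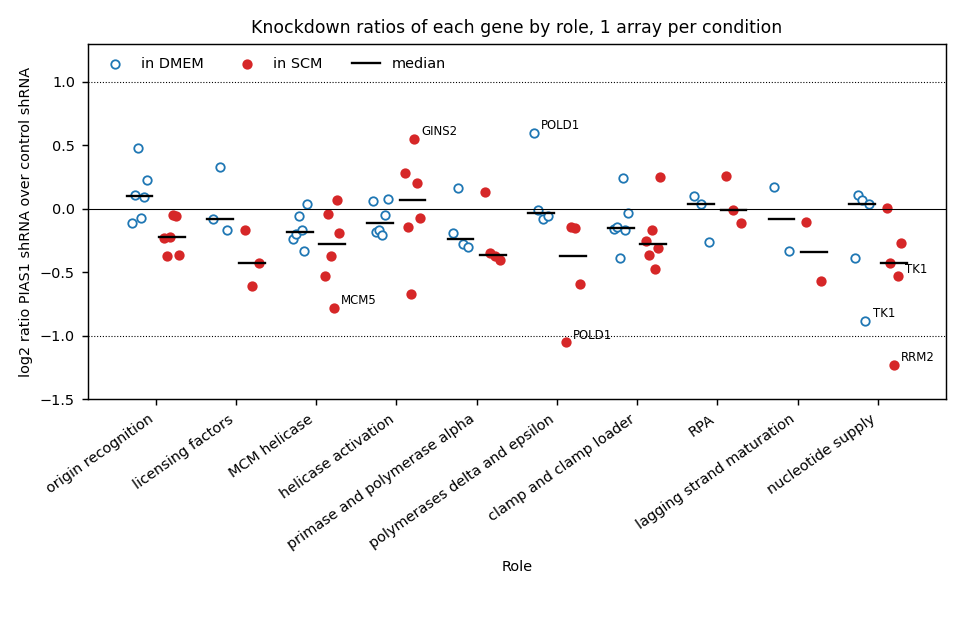
Log2 ratio between the lines (PIAS1 shRNA2 over control) for each gene by role, in DMEM (open blue) and SCM (filled red), with a bar at each median and dotted lines at 2-fold. RRM2 and POLD1 in SCM lie below the lower dotted line, and no gene lies above the upper one.

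For the knockdown in SCM, promoters are shown for the genes with the lowest ratios among those that have a window (RRM2, POLD1, GINS1, CDT1), beside DUT, which among them was with MCM3 nearest 0. MCM5, with a ratio below GINS1, and RPA2, with a ratio nearer 0 than MCM3, have no window. The windows are again RefSeq's on GRCh38.p14, first listed start, with RRM2 at chr2:10122489-10122788 (plus strand), POLD1 at chr19:50384073-50384372 (plus strand), GINS1 at chr20:25407423-25407722 (plus strand), CDT1 at chr16:88803539-88803838 (plus strand) and DUT at chr15:48330845-48331144 (plus strand). Capitals have the same meaning as before.
RRM2: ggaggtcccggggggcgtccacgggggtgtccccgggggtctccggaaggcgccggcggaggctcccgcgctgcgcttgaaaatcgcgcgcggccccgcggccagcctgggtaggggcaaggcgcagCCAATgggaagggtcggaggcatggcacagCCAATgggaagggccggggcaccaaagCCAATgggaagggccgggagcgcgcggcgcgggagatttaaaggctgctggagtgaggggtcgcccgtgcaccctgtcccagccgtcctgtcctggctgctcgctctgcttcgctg
POLD1: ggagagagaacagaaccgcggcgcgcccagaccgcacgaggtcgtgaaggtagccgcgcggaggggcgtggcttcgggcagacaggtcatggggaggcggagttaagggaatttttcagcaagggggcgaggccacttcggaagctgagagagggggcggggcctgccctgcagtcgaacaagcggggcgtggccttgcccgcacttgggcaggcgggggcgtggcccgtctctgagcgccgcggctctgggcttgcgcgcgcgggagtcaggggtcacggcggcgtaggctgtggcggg
GINS1: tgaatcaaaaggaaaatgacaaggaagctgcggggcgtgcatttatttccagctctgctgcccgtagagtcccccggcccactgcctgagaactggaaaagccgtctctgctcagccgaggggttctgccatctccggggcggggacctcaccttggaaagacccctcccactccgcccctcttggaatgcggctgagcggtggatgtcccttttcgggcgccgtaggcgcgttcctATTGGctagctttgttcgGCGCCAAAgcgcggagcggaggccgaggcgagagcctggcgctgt
CDT1: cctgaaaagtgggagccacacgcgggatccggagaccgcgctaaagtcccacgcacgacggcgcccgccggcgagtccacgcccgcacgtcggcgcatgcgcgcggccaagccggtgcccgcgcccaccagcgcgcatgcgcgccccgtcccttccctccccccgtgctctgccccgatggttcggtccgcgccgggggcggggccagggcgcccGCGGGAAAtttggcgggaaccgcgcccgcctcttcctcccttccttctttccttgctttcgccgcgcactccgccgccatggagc
DUT: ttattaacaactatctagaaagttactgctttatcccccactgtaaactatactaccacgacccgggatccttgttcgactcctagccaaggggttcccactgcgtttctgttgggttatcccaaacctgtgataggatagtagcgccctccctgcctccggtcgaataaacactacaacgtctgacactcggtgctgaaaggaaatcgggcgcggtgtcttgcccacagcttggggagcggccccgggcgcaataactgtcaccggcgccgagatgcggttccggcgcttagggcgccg

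RRM2 held CCAAT in capitals 3 times and no E2F letters, GINS1 held GCGCCAAA from position 6, CDT1 held GCGGGAAA from -35, and neither kind of letter was found in the POLD1 window or in the first DUT window. Over the set, 40 of the 45 genes have a RefSeq window, and MCM4, MCM5, POLD3, RPA2 and RPA3 have none in the table used here. The E2F letters searched on both strands were TTTCCCGC, TTTCGCGC, TTTGCCGC and TTTGGCGC, and matches that overlap were each counted. A match was present in at least 1 window of 21 of the 40 genes (52.5%), where 3.99% of all 27305 genes in the table and 6.48% of the 7938 of them read above the floor had a match. By single windows of 300 bases it was 38.2% of 55, against 3.31% of 35116. GMNN, CDC7 and DUT had their match in a window other than the first listed.

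Genes with and without the E2F letters overlapped in both medium comparisons and in the knockdown in SCM. The median log2 ratio of SCM over DMEM with control shRNA was -2.25 for the 21 genes with a match and -1.54 for the 19 without, with ranges of -4.23 to 0.17 and -4.12 to 0.25. With PIAS1 shRNA2 the medians were -2.44 and -1.76. For the knockdown in SCM they were -0.22 and -0.31. CCAAT was present in 57.5% of the 40 genes and 39.7% of all genes. TTTGAA, the core of the CHR element of genes expressed late in the cell cycle, was present in 2 of the 40 genes and in 18.2% of all. A match describes the letters of a window and does not show that a factor bound there.

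Probe sets of the same gene gave a second view of the readings. Of the 68 probe sets, 65 were above the floor, and 55 of them were at least 2-fold lower in SCM with control shRNA and 53 with PIAS1 shRNA2, where 9.72% and 9.90% of all 14913 probe sets above the floor were. Of 16 genes with several probe sets above the floor, 14 were lower in SCM on all of them in each line, the exceptions being ORC4 and RFC1. Over all 3332 such genes, 31.7% were with control shRNA and 33.7% with PIAS1 shRNA2. Probe sets matched less often for the knockdown in SCM, where 7 of the 16 genes were lower on all of them, against 27.0%. MCM4, with 4 probe sets, was lower on every one. RFC5, under 2-fold on its brightest probe set, had log2 ratios of -2.04 and -1.52 with control shRNA on its others. Over 2635 genes with several probe sets above the floor on all arrays, the SD between probe sets of a gene was 0.36 and 0.37 on the log2 scale for the medium ratios and 0.26 and 0.27 for the knockdown ratios in DMEM and SCM. This is a spread between probes, not between cultures. MCM5 is a case of disagreement, as its knockdown log2 ratio in SCM was -0.78 on the brightest probe set and 0.49 on the other, where the control shRNA signal of 100 was under the floor.

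**Figure D4:**
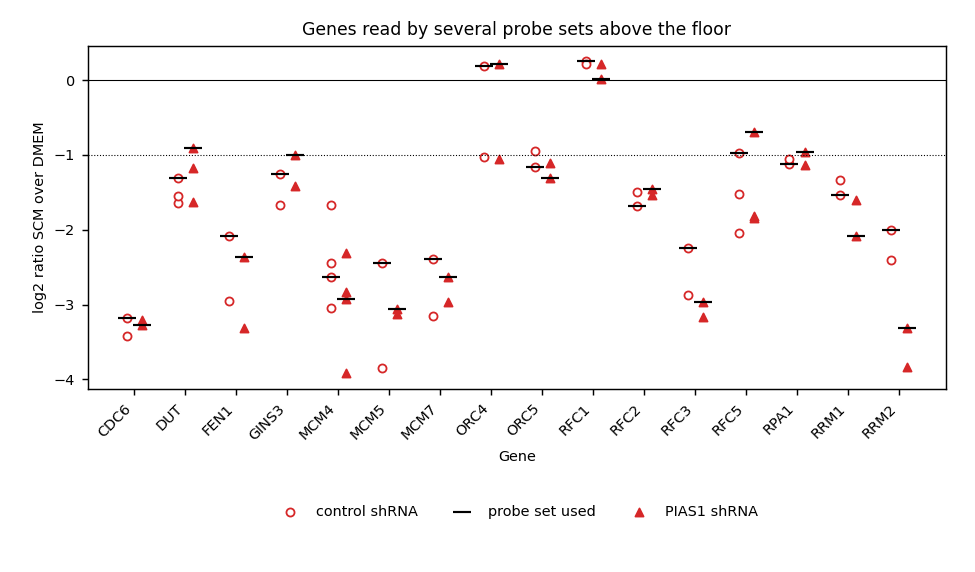
Log2 ratio of SCM over DMEM on each probe set above the floor for the 16 genes with more than 1, with circles for control shRNA, triangles for PIAS1 shRNA2, a bar at the probe set used and a dotted line at 2-fold lower. All probe sets lie below 0 for 14 genes, and ORC4 and RFC1 are the exceptions.

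Neighbouring gene lists were read the same way. Among all genes above the floor, 10.7% were at least 2-fold lower and 10.8% higher in SCM with control shRNA. With PIAS1 shRNA2 these shares were 10.4% and 10.9%. Of 24 other replication genes 20 were read, and 15 were at least 2-fold lower and 1 higher in SCM with control shRNA, and 16 and 1 with PIAS1 shRNA2. DSCC1, a subunit of an alternative clamp loader, gave 2717 and 3262 in DMEM and 294 and 77.1 in SCM, at least 17.8-fold lower with PIAS1 shRNA2. DNA2, a nuclease, gave 1312 and 1000 in DMEM and 208 and 261 in SCM. Between the lines in SCM 0 of these genes were 2-fold lower and 0 higher, with log2 ratios of -0.73 for GINS4, the last subunit of GINS, and 0.58 for MCM9, a helicase relative. Of 31 other nucleotide synthesis genes 27 were read, and 13 were lower and 1 higher in SCM in each line, with medians of -0.90 and -0.98. CAD, which starts pyrimidine synthesis, gave 2989 and 2873 in DMEM and 860 and 1478 in SCM, and GART of purine synthesis 4069 and 3936 in DMEM and 1090 and 1478 in SCM. Both were lower in SCM, 3.48-fold with control shRNA and 1.94-fold with PIAS1 shRNA2 for CAD, and 3.73-fold and 2.66-fold for GART. At the other end of the list's knockdown ratios, PFAS, also of purine synthesis, gave 2070 and 2355 in DMEM and 460 and 343 in SCM, or 4.50-fold and 6.87-fold lower, and CTPS2, a CTP synthase, gave 1018 and 805 in DMEM and 1438 and 1045 in SCM.

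The E2F and S phase regulators were divided. Of 27 listed 26 were read, with 13 lower and 2 higher in SCM with control shRNA and 12 lower and 2 higher with PIAS1 shRNA2. Among all genes above the floor, 10.7% were lower and 10.8% higher with control shRNA, and 10.4% and 10.9% with PIAS1 shRNA2. E2F8, a repressor of the family, gave 2084 and 1887 in DMEM and 438 and 199 in SCM, and was the list's only gene with a knockdown ratio in SCM past 2-fold. The other genes at the ends of its knockdown ratios in SCM were DTL, a ubiquitin ligase adaptor, at -0.86, E2F3 at 0.49 and CCNE1, cyclin E1, at 0.66. Chosen after their values were seen, E2F1, an activator of S phase genes, was lower in SCM, with log2 ratios of -2.20 and -2.35, and CDKN1A, the CDK inhibitor p21, gave 2291 and 2876 in DMEM and 16066 and 16072 in SCM. E2F1 and CDKN1A lay in opposite directions between the media, but the list did not divide into activators and inhibitors. The repressor E2F8 had log2 ratios of SCM over DMEM of -2.25 and -3.24, RBL1 -1.72 and -1.52, and RBL2 0.77 and 0.77.

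Mitosis genes, whose products act after S phase, were lower in SCM as well. Of 20 such genes, 16 were at least 2-fold lower in SCM with control shRNA and 20 with PIAS1 shRNA2, with medians of -1.65 and -2.35. Among all genes above the floor, 10.7% and 10.4% were. The knockdown readings in SCM were farther apart. PIAS1 shRNA2 gave signals at least 2-fold lower for 9 of the 20 mitosis genes and for 2 of the 45 replication genes. Among all genes above the floor the share was 1.5%. The medians of the lists were -0.98 and -0.23, beside 0.00 over all genes. PLK1, a mitotic kinase, gave 6551 and 7014 in DMEM and 2158 and 802 in SCM. KIF23, a kinesin of cytokinesis, gave 3693 and 3887 in DMEM and 940 and 170 in SCM, the last under the floor. At the upper end, the knockdown log2 ratio in SCM was -0.42 for CENPE and -0.33 for BUB1B. In DMEM the medians of the lists were -0.05 and -0.07. These counts are set side by side with no test, as each condition has 1 array. Both lists were chosen with earlier results of these data known.

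**Figure D5:**
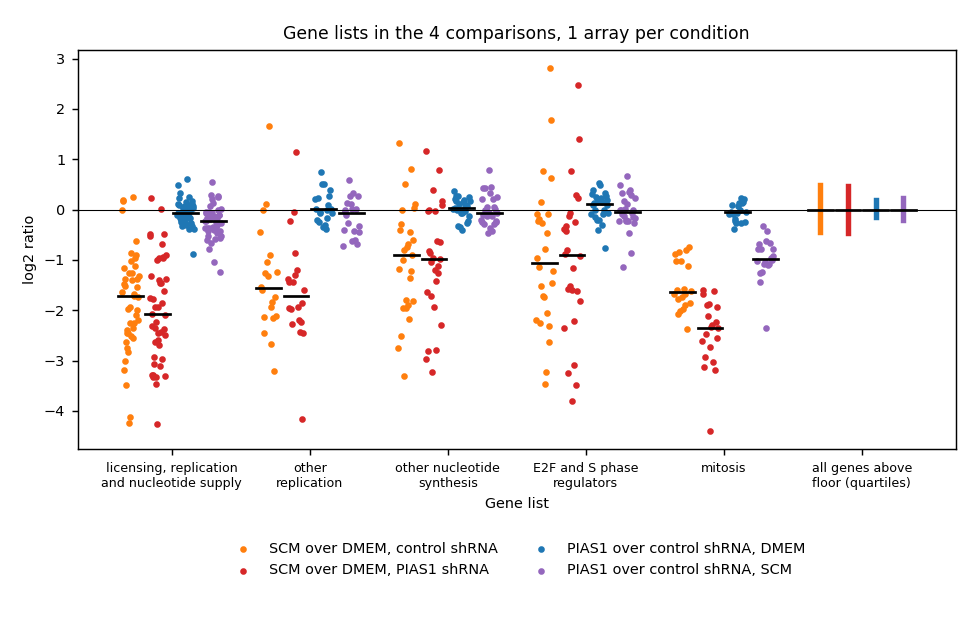
Log2 ratios of the 45 genes and of the other lists in the 4 comparisons, each point a gene and each bar a median, with the quartiles and median of all genes above the floor at the right. The medium ratios (orange and red) lie mostly below 0 in each list, and the knockdown ratios in SCM (purple) lie near 0 for the replication genes, with a median of -0.23, and lower for the mitosis genes, with a median of -0.98.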

How the data were processed

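RNA of 4 conditions was read on 1 Affymetrix expression array each. The authors deposited linear signal intensities. The submitters' processing notes name MAS5, with version and settings not given in the sources used here. Array number limits the precision, and no p-values were computed.

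Gene names came from the platform table. Of 22277 probe sets, 19070 are listed with 1 gene, and the 1043 with several and the 2164 unnamed here were left out, among them 2 of PRIM2 shared with PRIM2BP. Entrez identifiers of 19058 matched RefSeq, with 0 symbols updated. Where a gene had several probe sets, that of highest average log2 signal was used. The floor, 184, came from 68 probe sets for 52 genes typical of other tissues, as the 75th percentile on the array where it was highest. Columns of other series numbered 0.

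The members and lists were chosen with earlier results of these data known. Genes named are members at least 2-fold different in any comparison, the lowest and highest knockdown ratio in SCM per role, members whose probe sets differ by 1 or more, and up to 4 genes of each other list by that ratio. Promoters shown are the 4 lowest and the 2 nearest 0 in that ratio among the 40 members with a window, and those of GINS2, MCM10 and RFC1 were chosen after their values were seen. The alternatives were no floor or another floor, 2 scalings, 2 ways to join probe sets and a 1.5-fold limit. Steps ran in Python 3.11.15 with NumPy 2.4.6, pandas 2.3.3 and matplotlib 3.10.9 and were tested on simulated data.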

Additional observations from a re-analysis of the deposited data

Results flagged for a closer look

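POLD1, the catalytic subunit of polymerase delta, was 1.52-fold higher with PIAS1 shRNA2 in DMEM and 2.07-fold lower in SCM, so subtracting the DMEM log2 ratio from the SCM one gave -1.65. It was flagged because the lines differed in opposite directions, by at least 1.5-fold, in the 2 media. This held for 1 of 151 genes of all lists and for 81 of all 11963 genes. These are similar shares, so the pattern was no more frequent in the lists than on the array as a whole. Both totals include genes under the floor on all arrays. The difference was not tested, since each condition has 1 array, and the gene has 1 probe set.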

How the results depend on the processing

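The medium result kept its direction under all alternatives run. With control shRNA, 34 to 38 genes were at least 2-fold lower in SCM (37 as reported) and the median lay between -1.81 and -1.64. A limit of 1.5-fold gave 41 genes for that line. For PIAS1 shRNA2 it was 33 to 37 genes at 2-fold (34 as reported), 40 at 1.5-fold, and a median of -2.10 to -1.93. The median knockdown ratio lay between -0.25 and -0.14 in SCM and between -0.13 and -0.06 in DMEM, and its difference between -0.15 and -0.08. With a 1.5-fold limit, 6 genes were lower with PIAS1 shRNA2 in SCM, 1 was lower in DMEM (TK1) and 1 higher in DMEM (POLD1). Between the lines 86.7% of the 45 genes in SCM and 95.6% in DMEM lay within 1.5-fold. Over all genes it was 85.7% and 88.8%, so these calls were no more frequent than on the array as a whole. With the mean over probe sets, the PIAS1 log2 ratio was -1.15 in SCM and -1.80 in DMEM. Near the floor, the GINS2 ratio with control shRNA was -3.39 with a floor of 378 and -2.70 with a floor of 605, and that of MCM10 -3.56 and -2.88. Without probe sets that can match several transcripts (suffix _s_at or _x_at), the log2 ratio between the lines in SCM was -1.52 for RRM2 and 0.49 for MCM5, and the medium ratio of ORC4 with control shRNA was -1.03. The causes were not tested. Common-median or quantile scaling moved the median of all genes by at most 0.09 in size. No paired analysis was possible because the labels give no replicate numbers. The media were read within each line, and a fit with line and medium as terms was not run. Leaving out an array would leave its condition without a value. On the used probe sets of the 45 genes, ORC1 alone had a signal under the floor, which makes its ratios with that signal bounds. GINS2 and MCM10 lay near the floor in SCM but above it.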
